A study of Homo sapiens with 12 samples.

Results

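The 10 genes described here encode chaperones and folding enzymes of the lumen of the endoplasmic reticulum (ER), and were taken by symbol from the 59276 features of one expression table. They are HSPA5, HSP90B1, DNAJB9, DNAJC3, SDF2L1, PDIA4, PDIA6, CRELD2, HYOU1 and MANF, and each symbol was found once. Total RNA was sequenced from MM1S, a human multiple myeloma line, in 12 libraries. There were 3 libraries at day 0 and 3 each after 2, 3 and 5 days with NGI-1, which the methods give at 10 μM. The labels give NGI-1 as the agent of the day 0 libraries too, whereas the paper calls the comparison cells untreated or control, so whether vehicle was added at day 0 is not settled, and no library is labelled as an untreated culture of a later day. All libraries come from this 1 line.

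NGI-1 inhibits the oligosaccharyltransferase, the enzyme that attaches N-linked glycans to proteins entering the ER. Unfolded proteins in the ER lumen draw BiP, the product of HSPA5, away from the stress sensors IRE1, PERK and ATF6, and the transcription factors XBP1 and ATF6 then raise the genes of chaperones, of enzymes that form disulfide bonds and of cofactors of BiP. Myeloma cells descend from plasma cells, which secrete antibody and hold a large ER.

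XBP1 and ATF6 act through short promoter elements, and 3 were searched on both strands of the 250 bases before each RefSeq start site. These were the ER stress response element (ERSE, CCAAT and CCACG with 9 bases of any kind between), ERSE-II (ATTGG and CCACG with 1 base between) and the UPR element (UPRE, TGACGTGG). All 10 genes had a window, PDIA4 and PDIA6 more than 1, and 6 genes held an ERSE or ERSE-II in any window. Counted per window and not per gene, the share over all 35116 windows was 0.125%. The 6 were HSPA5, HSP90B1, SDF2L1, PDIA6, CRELD2 and HYOU1. The HSPA5 and HYOU1 stretches below are shown because they hold one element and overlapping elements, respectively, and overlap no annotated exon. They are the RefSeq sequence of GRCh38.p14, read 5′ to 3′ on the minus strand, with the motif matches in capitals. The HSPA5 stretch is chr9:125241344-125241543 and the HYOU1 stretch is chr11:119057206-119057405.
HSPA5: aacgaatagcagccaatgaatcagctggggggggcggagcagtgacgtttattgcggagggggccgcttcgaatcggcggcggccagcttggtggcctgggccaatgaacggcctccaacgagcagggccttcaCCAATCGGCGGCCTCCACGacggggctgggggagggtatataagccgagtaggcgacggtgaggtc
HYOU1: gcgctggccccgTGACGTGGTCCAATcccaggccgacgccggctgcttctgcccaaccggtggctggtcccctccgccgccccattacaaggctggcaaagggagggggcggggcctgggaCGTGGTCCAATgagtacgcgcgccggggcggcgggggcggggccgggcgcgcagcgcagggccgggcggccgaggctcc

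HYOU1 holds 2 ERSE-II matches on the other strand, and the one farther from the start overlaps its UPRE. For the other genes only the match and 5 bases on each side are shown, with the fixed letters in capitals, so that the elements can be compared. The HSP90B1 matches lie at chr12:103930211-103930239, read on the plus strand, and at chr12:103930316-103930344, read on the minus strand. The others lie at chr2:10812848-10812876 for PDIA6, chr22:49918549-49918577 for CRELD2 and chr22:21642109-21642129 for SDF2L1, all read on the minus strand.
HSP90B1 far ERSE: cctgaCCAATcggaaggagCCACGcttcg
HSP90B1 near ERSE: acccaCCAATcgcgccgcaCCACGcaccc
PDIA6 ERSE: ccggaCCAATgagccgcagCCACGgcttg
CRELD2 ERSE: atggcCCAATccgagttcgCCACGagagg
SDF2L1 ERSE-II: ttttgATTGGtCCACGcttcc

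No match to these letters was found in the windows of DNAJB9, DNAJC3, PDIA4 and MANF. Of 66 other ER folding genes, 58 had a window and 4 of these held an ERSE or ERSE-II, namely FICD, ERO1B, CALR and CANX. Of 15 cytosolic and mitochondrial chaperone genes with a window, the number was 0. A match is a description of letters and not of binding.

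The authors deposited the log2 of TPM plus 1, where TPM is the share of the RNA that a transcript takes, corrected for its length. TPM keeps no counts, so the depth behind each value is unknown, although per the labels each library had over 60 M read pairs. Testing with limma on this scale covered 11939 features, those that reached a TPM of 1 in 3 or more libraries. Calls required a Benjamini-Hochberg adjusted p under 0.05 over all tested features and a change above 0.5 or below -0.5 on the log2 scale. Over all tested features the median change was -0.18 (log2) at day 2, -0.73 at day 3 and -0.99 at day 5, while the 78 ribosomal protein genes took 28.6% ± 0.531 (SD, n = 3) of all TPM at day 0 and 48.5% ± 0.858 (SD, n = 3) at day 5. Changes are therefore also given after rescaling, in which 1 factor per library centred the 5433 features whose mean TPM was 10 or more. In bulk RNA, fewer cells of a type and less RNA per cell cannot be told apart. All 9 plasma cell markers were above 0 in the 12 libraries, with a summed TPM of 11997 to 14140 at day 0, 19036 to 22241 at day 2, 25498 to 28391 at day 3 and 19920.0 to 21182 at day 5. JCHAIN, at 8732 to 24865 TPM, made up most of this sum. The markers did not move together at day 5. SDC1 (-1.79), XBP1 (-2.09), IRF4 (-1.09), CD38 (-1.34) and MZB1 (-1.06) were called lower on the log2 scale at day 5. Of these, SDC1 and XBP1 were so after rescaling. TNFRSF17 (1.85, and 3.08 after rescaling) and JCHAIN (0.84, and 2.07 after rescaling) were called higher at day 5, before and after rescaling. PRDM1 and SLAMF7 were called higher at day 5 only after rescaling. Of 13 markers of other cells, CD3D, COL1A2 and EPCAM were listed at 0 throughout, and the summed TPM was 8.86 to 9.38 at day 0, 12.3 to 13.2 at day 2, 8.50 to 12.3 at day 3 and 5.40 to 8.19 at day 5. CD3E was at 2.75 to 7.22 TPM and PECAM1 at 1.25 to 8.09 TPM; their part in the results was not tested.

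All 10 chaperone genes were tested. After 2 days of NGI-1, 5 of them were called higher, against a background of 8.03% of all tested features: DNAJB9, CRELD2, HSP90B1, MANF and DNAJC3. None was called lower by limma, where the background was 23.2%, and at an unadjusted p under 0.05 the counts were 8 higher and 0 lower. That threshold is looser, and the share of all features that passed it is not given here or below. All 10 fold changes were above 0, beside 4090 of the 11939 tested features, with a median of 0.45 beside -0.18 for all features. In 9 of 10 genes, all but SDF2L1, every day 2 library lay above every day 0 library, which was so for 16.9% of all tested features. After rescaling, 9 genes were called higher against a background of 12.9%, none lower against 11.4%, and the median was 0.67.

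At day 3 the direction turned on the deposited scale. There 8 genes were called lower, against a background of 61.5%, and DNAJB9 alone was called higher, against 7.59%. At day 5 the counts were 9 lower and 1 higher, against 69.8% and 7.73%. In the same 9 genes no library of day 3 or day 5 reached the day 0 range, which was so for 70.5% and 75.2% of all tested features. The medians were -0.70 and -1.25 for the chaperone genes beside -0.73 and -0.99 for all features. After rescaling, SDF2L1 was called lower at both days and DNAJB9 higher at both, against backgrounds of 24.2% (lower) and 23.9% (higher) for day 3, then 26.9% and 27.5% for day 5, and the other 8 genes were not called. Some of these 8 passed the p threshold but not the fold threshold. In direction alone, 7 of the 10 lay above 0 at day 3 after rescaling and 4 at day 5. Of the 11939 tested features, 5778 did so at day 3 and 5848 at day 5. All treated groups were set against the same 3 day 0 libraries.

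**Figure D1:**
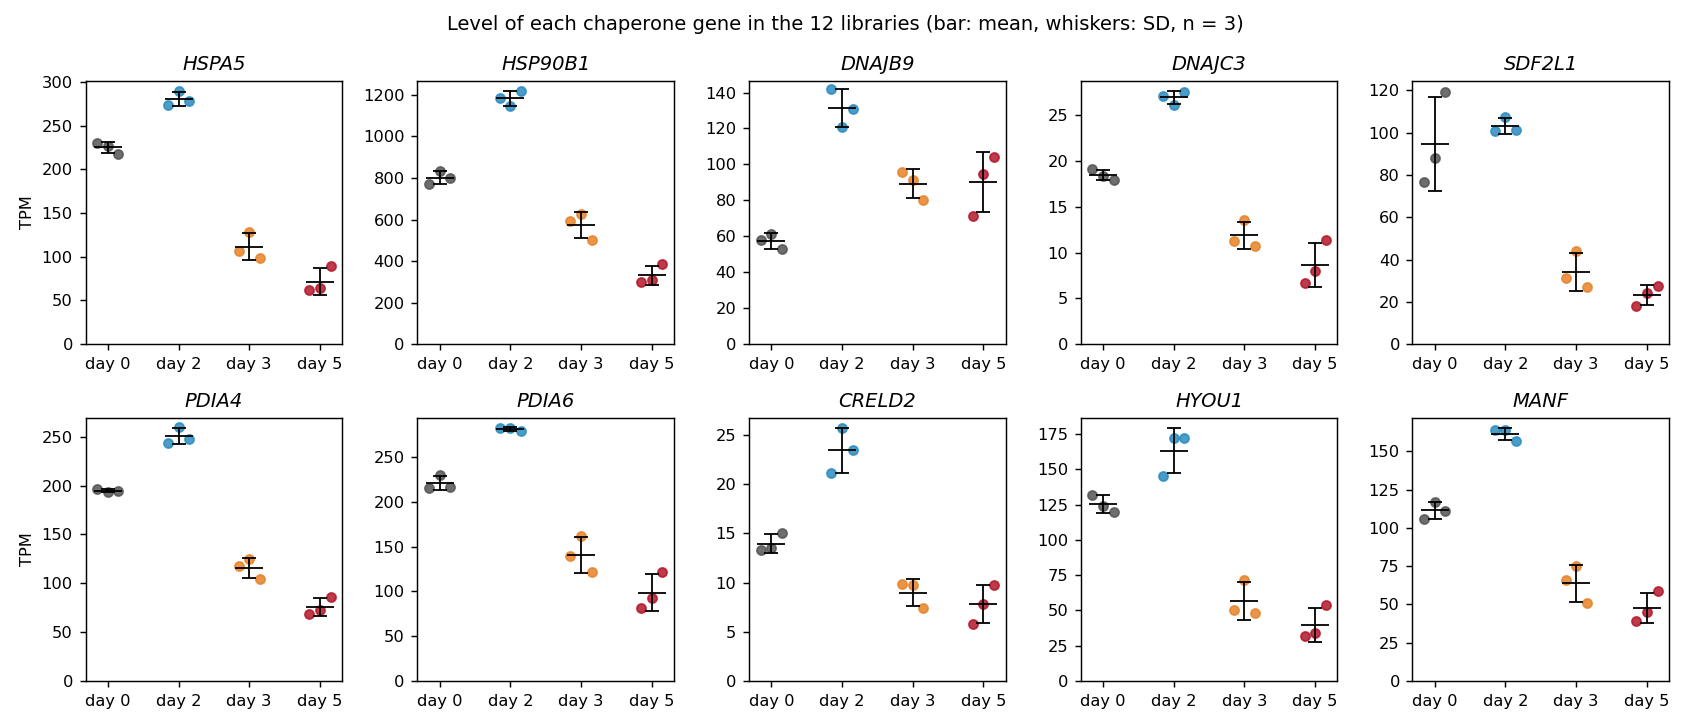
TPM (vertical axes, from 0) of each chaperone gene at day 0 and after 2, 3 and 5 days of NGI-1, with 1 point per library, a bar at the mean and whiskers of 1 SD (n = 3). The day 2 libraries lie above day 0 in 9 panels, and the day 3 and day 5 libraries lie below day 0 in all panels but that of DNAJB9, a direction that rescaling turns for 6 genes at day 3 and 3 at day 5.

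The ATPases and their nucleotide exchange factor come first. HSPA5 (chr9:125234853-125241330, minus strand) encodes BiP, the Hsp70 chaperone of the ER. Its TPM was 230.0, 227 and 218 at day 0, and 273, 289 and 278 at day 2. By day 3 it was at 106, 129 and 98.8, and by day 5 at 61.4, 64.1 and 89.6. The day 2 libraries were all higher and the day 3 and day 5 libraries all lower than those of day 0. The log2 fold change was 0.32 ± 0.128 (SE) at day 2, which was not called (limma, adjusted p = 0.059), then -1.02 ± 0.128 (adjusted p = 6.52e-06) and -1.66 ± 0.128 (adjusted p = 3.39e-08). After rescaling it was 0.55, called, at day 2, and -0.15 and -0.44, not called, at days 3 and 5. The rescaled day 5 value passed the p threshold (limma, adjusted p = 0.000156) but not the fold threshold.

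HYOU1 (chr11:119044189-119057202, minus strand) encodes GRP170, a large Hsp70-like protein that exchanges nucleotide on BiP. HYOU1 stood at 132, 124 and 119.5 TPM at day 0, and 145, 172 and 173 at day 2. The day 3 libraries gave 50.02, 71.9 and 48.1, and those of day 5 31.8, 34.2 and 53.6. No treated group overlapped day 0. Its log2 fold changes were 0.38, not called (adjusted p = 0.105), then -1.15 (adjusted p = 4.78e-05) and -1.66 (adjusted p = 9.61e-07), each with an SE of 0.180. Rescaled values were 0.61, called, then -0.30 and -0.46, not called. The last of these passed the p threshold (limma, adjusted p = 0.00546) but not the fold threshold.

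HSP90B1 (chr12:103930107-103953645, plus strand) encodes GRP94, the Hsp90 of the ER, and had the highest level of the 10 in every library. The 3 libraries gave 771, 833 and 798 TPM at day 0, and 1184, 1147 and 1219 at day 2. Later values were 593, 627 and 503 on day 3 and 299, 308 and 385 on day 5. The groups did not overlap. HSP90B1 rose at day 2 by 0.56 ± 0.0988 on the log2 scale (adjusted p = 0.000474) and fell by 1.28 ± 0.0988 at day 5 (adjusted p = 3.33e-08). The day 3 value of -0.48 (adjusted p = 0.000485) was just short of the fold threshold, was called at -0.51 without day 0 replicate 1, at -0.51 without day 3 replicate 1 and at -0.55 without day 3 replicate 2, and was 0.38, not called, after rescaling. The rescaled day 3 value passed the p threshold (limma, adjusted p = 0.000337) but not the fold threshold. The rescaled value was 0.80 at day 2 and -0.06 at day 5.

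Cofactors of BiP include the J-domain proteins DNAJB9 and DNAJC3, and SDF2L1. DNAJB9 (chr7:108569568-108574850, plus strand), also called ERdj4, delivers clients to BiP and restrains IRE1. It was at 57.7, 61.5 and 53.03 TPM at day 0, and 142, 121 and 131 at day 2. It then went to 95.9, 91.6 and 80.4 by day 3 and 71.5, 94.6 and 104 by day 5. Every treated library exceeded every day 0 library. DNAJB9 rose at all days, by 1.18 ± 0.126 (adjusted p = 7.42e-06), 0.63 ± 0.126 (adjusted p = 0.000433) and 0.62 ± 0.126 (adjusted p = 0.00037) on the log2 scale, and by 1.40, 1.48 and 1.83 after rescaling. It overlaps PNPLA8 and THAP5 on the opposite strand, and whether counting used strand is not given in the sources used here, so their reads cannot be told apart. PNPLA8 had a mean of 11.9 TPM at day 0 and 27.5, 29.4 and 38.3 at days 2, 3 and 5, while THAP5 went from 26.3 to 22.1, 17.7 and 15.97. The same limit holds for HSP90B1, PDIA6, CRELD2 and HYOU1, each of which overlaps a gene on the opposite strand (C12orf73 and TTC41P, ATP6V1C2, ALG12 and an antisense gene, respectively), and for DNAJC3, whose span holds mitochondrial pseudogenes on both strands.

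DNAJC3 (chr13:95677139-95794989, plus strand), or p58IPK, is a J-domain cochaperone of BiP and an inhibitor of PERK. The TPM values were 19.1, 18.3 and 17.9 at day 0, and 27.1, 26.1 and 27.5 at day 2. On day 3 it stood at 11.3, 13.6 and 10.7, followed by 6.71, 7.95 and 11.3 on day 5. All groups were apart from day 0. The log2 fold changes were 0.52 (adjusted p = 0.0114), -0.60 (adjusted p = 0.002) and -1.04 (adjusted p = 1.56e-05), each with an SE of 0.148 and each called. After rescaling DNAJC3 was at 0.73, called, then at 0.21 and 0.09, above day 0 and not called.

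SDF2L1 (chr22:21642261-21644298, plus strand) is a cofactor in the BiP and J-domain protein cycle. Its day 0 libraries were spread, at 76.5, 88.0 and 119 TPM, and the day 2 libraries, at 101, 107 and 101, fell within that range. At day 3 they were 31.2, 44.2 and 27.0, and at day 5 18.2, 24.3 and 27.4, all below day 0. The day 2 change of 0.15 ± 0.191 was not called (adjusted p = 0.563), whereas SDF2L1 fell by 1.45 ± 0.191 (adjusted p = 9.87e-06) and by 1.97 ± 0.191 (adjusted p = 3.19e-07) at days 3 and 5. It was the only one of the 10 still called lower after rescaling, at -0.60 (adjusted p = 0.00366) and -0.77 (adjusted p = 0.000489). At day 5 HSPA5 (-0.44), HYOU1 (-0.46) and PDIA4 (-0.14) passed the p threshold after rescaling but not the fold threshold.

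**Figure D2:**
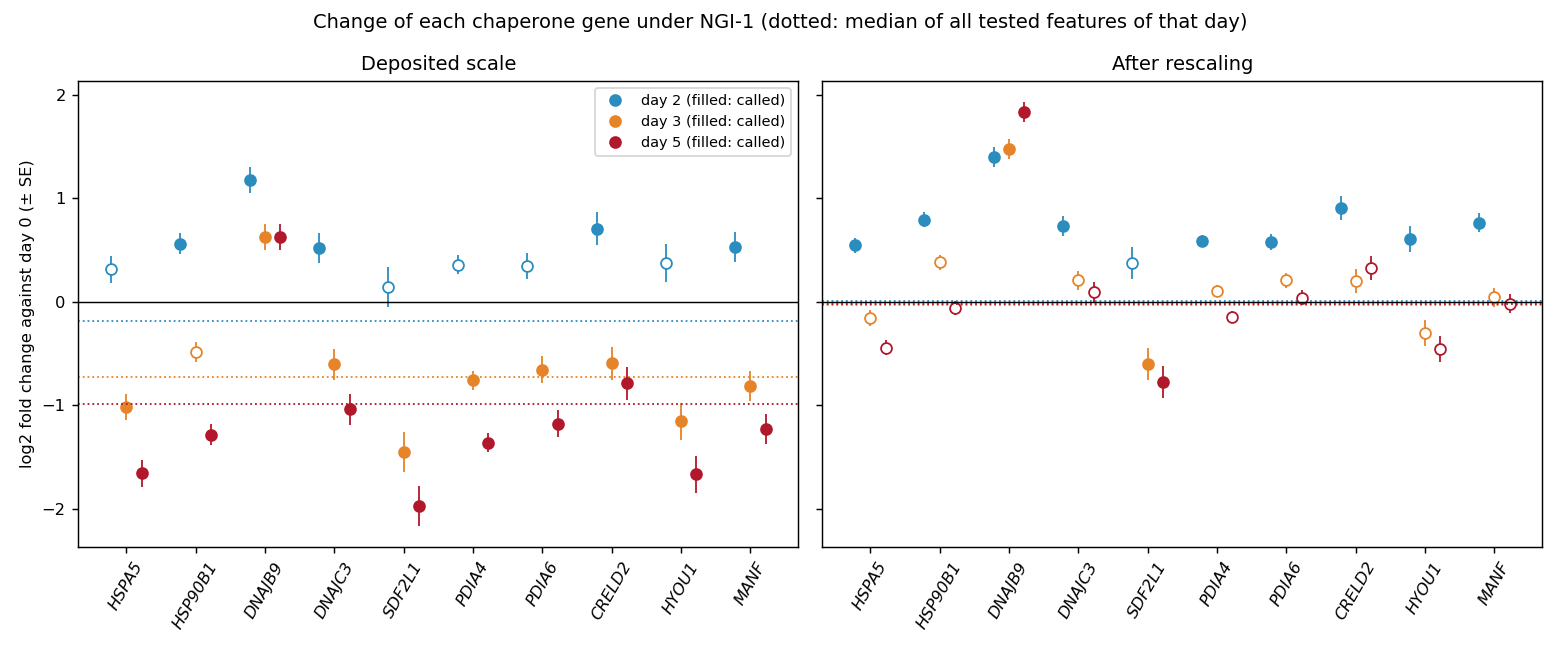
Log2 fold change against day 0 (vertical axis, ± SE) of each chaperone gene on the deposited scale (left) and after rescaling (right), with 1 colour per day, filled points for called genes and dotted lines at the median of all tested features. On the left DNAJB9 alone stays above 0 at days 3 and 5, and on the right it reaches 1.83 at day 5 while SDF2L1 lies at -0.77.

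The thiol enzymes PDIA4 and PDIA6, or ERp72 and P5, form and rearrange disulfide bonds. PDIA4 (chr7:149003062-149028641, minus strand) was at 197, 194 and 194 TPM at day 0, and 244, 260.0 and 248 at day 2. TPM values of 117, 125 and 104 came on day 3, then 68.7, 72.5 and 85.8 on day 5. These groups did not overlap. The day 2 value of 0.36 ± 0.0911 passed the p threshold but not the fold threshold (adjusted p = 0.00572), and PDIA4 fell by 0.76 (adjusted p = 4.39e-06) and 1.36 (adjusted p = 8.52e-09) at days 3 and 5. Rescaled, it rose by 0.59 at day 2, and was at 0.11 and -0.14, not called, later.

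PDIA6 (chr2:10783391-10837977, minus strand) gave 216, 230.5 and 217 TPM at day 0, and 283, 283 and 279 at day 2. The later groups had 139, 162 and 122 (day 3) and 81.4, 92.6 and 122 (day 5). The day 2 libraries were above and the later ones below day 0. Its log2 fold changes were 0.35, not called (adjusted p = 0.0412), -0.65 (adjusted p = 0.000374) and -1.17 (adjusted p = 1.13e-06), each with an SE of 0.129. After rescaling PDIA6 was called higher at day 2, at 0.58, and stood at 0.21 and 0.04, not called, at days 3 and 5.

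CRELD2 and MANF encode proteins that are retained in the ER and can be secreted under stress. CRELD2 (chr22:49918167-49927540, plus strand), a protein with EGF-like domains, had the lowest level at day 0, with 13.3, 13.5 and 15.02 TPM, and reached 21.1, 25.7 and 23.4 at day 2. It then fell to 9.80, 9.76 and 7.38 at day 3 and 5.82, 7.82 and 9.73 at day 5, and no treated group overlapped day 0. CRELD2 rose by 0.71 ± 0.159 at day 2 (adjusted p = 0.00284), and was at -0.59 (adjusted p = 0.00382) and -0.79 (adjusted p = 0.000375), both called, at days 3 and 5. The day 3 call was lost without day 3 replicate 3, at -0.47, and after rescaling the values were 0.91, called, then 0.20 and 0.33, above day 0 and not called.

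MANF (chr3:51385047-51389397, plus strand), a trophic factor that binds BiP, gave 106, 117 and 111 TPM at day 0, and 164, 164 and 157 at day 2. Day 3 brought 65.9, 74.9 and 50.7 and day 5 39.3, 44.9 and 58.8. Again the groups were apart from day 0. MANF rose by 0.53 ± 0.145 at day 2 (adjusted p = 0.00888), a call lost at 0.50 without day 0 replicate 1, and fell by 0.81 (adjusted p = 0.000163) and 1.22 (adjusted p = 2.44e-06) at days 3 and 5. Rescaling gave 0.76, called, then 0.05 and -0.02, not called.

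TPM is per transcript length, so the levels of the 10 genes can be ordered. By mean TPM at day 0 the order was HSP90B1 (801), HSPA5 (225), PDIA6 (221), PDIA4 (195), HYOU1 (125), MANF (111), SDF2L1 (94.6), DNAJB9 (57.4), DNAJC3 (18.5) and CRELD2 (13.9). The libraries of HSPA5 and PDIA6 overlapped, as did those of MANF and SDF2L1, and the other neighbours did not. At day 5 DNAJB9, at a mean of 90.0 TPM, stood behind only HSP90B1 (331) and PDIA6 (98.7). Its day 5 libraries overlapped those of PDIA6, PDIA4 and HSPA5, so its place among these is not settled. The 10 genes together took 0.186% ± 0.00447 (SD, n = 3) of all TPM at day 0, 0.261% ± 0.00279 at day 2, 0.121% ± 0.0148 at day 3 and 0.0794% ± 0.0137 at day 5.

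Between days 2 and 3 all 10 genes were called lower, against a background of 55.5%, with a median of -1.21 beside -0.57 for all features. The values ran from -0.55 for DNAJB9 to -1.60 for SDF2L1, and in each gene the day 3 libraries lay below the day 2 libraries, as in 70.1% of all tested features. Called higher were 0 of 10, against 3.22%, and none had an unadjusted p under 0.05 in that direction. After rescaling 6 were called lower, against 13.6% (higher 0, against 14.3%): HSPA5 (-0.70), DNAJC3 (-0.52), SDF2L1 (-0.97), CRELD2 (-0.71), HYOU1 (-0.90) and MANF (-0.72). DNAJB9 turned to 0.08 after rescaling, and its call on the deposited scale was lost at -0.49 without day 2 replicate 1 and at -0.48 without day 3 replicate 3.

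From day 3 to day 5 the genes HSPA5 (-0.64), HSP90B1 (-0.80), PDIA4 (-0.60), PDIA6 (-0.52) and HYOU1 (-0.51) were called lower, which is 5 of 10 against a background of 13.1% (higher 0, against 0.67%). The count was 3 without day 3 replicate 2, day 5 replicate 1 or day 5 replicate 2, and 8 without day 5 replicate 3. The share of all features called in these fits is not given. Day 5 replicate 3 had the highest TPM of its group for all 10 genes. The rescaling factor was also highest in that library, at -0.437 (log2) beside -0.803 and -0.689 in the others of day 5. After rescaling limma called 0 of 10 lower, against 2.03%, and 0 higher, against 4.43%, and the counts at an unadjusted p under 0.05 on the deposited scale were 8 lower and 0 higher. DNAJB9 moved by -0.00 ± 0.126 on the deposited scale and by 0.35 after rescaling, neither called.

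The genes were also compared within libraries, as ratios of TPM + 1, which depend on the scaling of a library only through the added 1. For 12 pairs the mean log2 ratio of the 9 treated libraries was set against the 3 day 0 libraries by an exact two-sided permutation test over 220 choices, whose smallest possible p is 0.00455, with adjustment over the 12 pairs. HSPA5 to DNAJB9 differed most among pairs of chaperone genes. The ratio was 3.87 at day 0, 2.13 at day 2, 1.24 at day 3 and 0.797 at day 5, a difference of -1.60 in the log2 ratio (exact p = 0.00455, adjusted p = 0.0109). HSPA5 also differed by -0.39 relative to HSP90B1 and by -0.41 relative to DNAJC3 (both exact p = 0.00455, adjusted p = 0.0109). In these 3 pairs no treated library overlapped day 0.

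The 2 Hsp70-like genes HSPA5 and HYOU1 had a ratio of 1.79, 1.72, 1.97 and 1.80 at days 0, 2, 3 and 5. The log2 difference of 0.03 did not pass the test (exact p = 0.75, adjusted p = 0.75), with overlapping groups. MANF to HSPA5 differed by 0.29 (exact p = 0.00909, adjusted p = 0.0182), and HSPA5 to DNAJB11, another J-domain cofactor of BiP, by -0.23 (exact p = 0.214, adjusted p = 0.233). The first of these fell to 0.23 (exact p = 0.0545) without day 0 replicate 1.

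HSPA5 and HSP90B1 were each paired with a relative outside the ER, and each stood higher against it with treatment. HSPA5 to HSPA8, the constitutive Hsp70 of the cytosol, went from 0.111 at day 0 to 0.286, 0.191 and 0.215 at days 2, 3 and 5, a log2 difference of 1.03 (exact p = 0.00455, adjusted p = 0.0109). HSP90B1 to HSP90AB1, an Hsp90 of the cytosol, went from 1.001 to 2.59, 2.38 and 1.75, a log2 difference of 1.14 (exact p = 0.00455, adjusted p = 0.0109). All 9 treated libraries lay above the 3 day 0 libraries in both pairs. HSP90AA1, also an Hsp90 of the cytosol, was not paired. Its log2 fold changes were -0.99, -0.45 and -0.32 at days 2, 3 and 5, beside 0.56, -0.48 and -1.28 for HSP90B1. The result for HSP90AB1 therefore does not extend to HSP90AA1 at the later days.

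The last 4 pairs set a chaperone gene beside a relative that also acts in the ER. PDIA6 to P4HB, the archetypal protein disulfide isomerase, differed by 0.32 (exact p = 0.0136, adjusted p = 0.0234), and by 0.30 (exact p = 0.0545) without day 0 replicate 1. PDIA4 to PDIA3 differed by -0.16 (exact p = 0.118, adjusted p = 0.158). CRELD2 to CRELD1 differed by -0.79 (exact p = 0.0364), which did not hold after adjustment (adjusted p = 0.0545), and by -0.93 (exact p = 0.0182, adjusted p = 0.0273) as a ratio of TPM with nothing added, the only pair of the 12 whose adjusted call changed. SDF2L1 to SDF2 was 2.65 at day 0, 3.03 at day 2, 0.990 at day 3 and 0.736 at day 5, and over all treated libraries the difference of -1.02 did not pass the test (exact p = 0.141, adjusted p = 0.169).

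The wider ER folding machinery was followed in 5 lists of 66 genes, of which 58 were tested. At day 2, 11 (19.0%) were called higher and 3 (5.17%) lower, beside 8.03% and 23.2% of all tested features, with a median of 0.09. At day 5 1 (1.72%) was higher and 39 (67.2%) lower, beside 7.73% and 69.8%, with a median of -0.98. After rescaling 21 (36.2%) were higher and 1 (1.72%) lower at day 2, beside 12.9% and 11.4%, and 21 (36.2%) higher and 10 (17.2%) lower at day 5, beside 27.5% and 26.9%. Among 8 genes grouped with the BiP cofactors, DNAJC1 had the largest rise at day 2 (1.01, and 1.24 after rescaling) and DNAJC10 the lowest value (-0.25, and -0.03 after rescaling, neither called). At day 5 HSPA13, an Hsp70-like ATPase, was the highest (0.91, and 2.12 after rescaling, both called) and DNAJB11 the lowest (-1.22, called, and -0.00 after rescaling, not called).

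Of 21 tested thiol enzymes, 3 (14.3%) were called higher and 1 (4.76%) lower at day 2, beside 8.03% and 23.2% of all features. Their values ran from SELENOM (0.92, and 1.13 after rescaling, both called) to TXNDC16 (-0.50, a call lost after rescaling at -0.29). At day 5 14 of the 21 (66.7%) were lower, beside 69.8% of all features. After rescaling 8 (38.1%) were higher and 3 (14.3%) lower at day 5, beside 27.5% and 26.9%. The oxidase ERO1A was at -1.87 at day 5 (-0.72 after rescaling, both called) and ERO1B at 0.15, not called, but 0.73, called, after rescaling. Lectin and calcium-binding chaperones ran at day 2 from RCN1 (0.52, and 0.74 after rescaling, both called) to RCN3 (-0.84, and -0.61 after rescaling, both called). At day 5 they ran from RCN2 (0.28, not called, but 1.49, called, after rescaling) to RCN3 (-2.24, and -1.71 after rescaling, both called). Among 7 tested prolyl isomerases FKBP11 had the highest value at day 2 (0.53, and 0.76 after rescaling, both called) and the lowest at day 5 (-1.80, and -0.60 after rescaling, both called). FKBP9 was at -0.34 at day 2 (-0.13 after rescaling, neither called) and FKBP7 at 0.23 at day 5, not called, but 1.03, called, after rescaling. In the remaining list CRELD1 rose by 0.84 at day 2 (0.97 after rescaling), where MESD was at -0.17 (0.05 after rescaling, neither called). At day 5 KDELR2, a receptor that returns ER proteins from the Golgi, was at -2.16 (-0.98 after rescaling, both called) and CRELD1 at 0.25, not called, but 1.23, called, after rescaling. The day 2 calls of FKBP11 (0.47 without day 0 replicate 2 or day 2 replicate 2), RCN1 (0.45 without day 0 replicate 1, 0.41 without day 2 replicate 1) and TXNDC16 (-0.44 without day 0 replicate 2, -0.40 without day 2 replicate 2) each rested on single libraries.

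Of 13 regulators of the unfolded protein response, DDIT3, which encodes CHOP, had the largest rise at day 2 (1.13, and 1.32 after rescaling) and day 5 (1.86, and 3.02 after rescaling). NFYB was at -0.53 at day 2, a call lost at -0.40 without day 0 replicate 2, at -0.44 without day 2 replicate 2 and at -0.31 after rescaling. XBP1 was lowest at day 5 (-2.09, and -0.87 after rescaling, both called).

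The cytosolic and mitochondrial counterparts went the other way from the ER chaperones at day 2. Of 15, HSPA1A was not tested, and limma called 13 of the 14 others lower and 0 higher at day 2, with 14 lower and 0 higher at an unadjusted p under 0.05. The 13 are 92.9% of the list, beside 23.2% of all features. The median was -0.79 beside 0.45 for the ER chaperones and -0.18 for all features, and the range was from DNAJA1 (-0.43, not called) to HSPH1 (-1.32, and -1.08 after rescaling, both called). After rescaling 8 (57.1%) were called lower, beside 11.4%, and the median was -0.56. At day 5 12 (85.7%) were called lower, beside 69.8%, with a median of -2.21, and after rescaling 11 (78.6%) were lower and 3 (21.4%) higher, beside 26.9% and 27.5%. HSPA8 was lowest (-2.61, and -1.39 after rescaling, both called) and HSPE1, the mitochondrial cochaperonin, stood at 0.15, not called, and at 1.37, called, after rescaling. HSPA1B shares reads with its near-identical copy HSPA1A, so its value is uncertain.

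Among the same 5433 features of higher level, likeness to HSPA5 was measured as the Euclidean distance between the 3 log2 fold changes against day 0, taken over 12 libraries that share the day 0 group. The nearest were PLTP (0.0973), HYOU1 (0.149), CABLES1 (0.165), NOMO1 (0.175) and P4HB (0.202). PLTP had a mean TPM of 10.1, just above the minimum of 10 for these features. HYOU1 was thus the second nearest of the 5433 features, PDIA4 (0.398) had rank 87 and MANF (0.526) rank 250. DNAJB9, at a distance of 2.94, had rank 5002.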

How the data were processed

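Libraries were made from 200 ng of total RNA per the labels. The submitters' processing notes name FastQC, Trimmomatic, STAR, Salmon and the build hg38, with versions and annotation not given in the sources used here. The authors deposited log2 values of TPM plus 1 per gene symbol, with 1 column per library, and no counts. Groups came from the labelled day. Replicates were numbered in accession order only, and the labels do not say that they were separate cultures, so p-values measure the spread between these libraries, which may be technical.

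A linear model in limma 3.58.1 (R 4.3.3) gave 1 mean per group over all 12 libraries, with a mean-variance trend, and two-sided p-values were adjusted per contrast by Benjamini-Hochberg. Fold changes are on the log2(TPM + 1) scale, which understates changes of low genes. The procedure was also run on simulated data that held no shift of most features, so that run does not bear on the choice of scale. Rescaling subtracted from each library the median deviation of its log2 values from the feature means. Ratios of TPM + 1 were tested by exact permutation, and a ratio of TPM with nothing added was tried after seeing the data. Motifs were read from RefSeq promoters, and gene spans and exons from GENCODE release 29 on GRCh38. Figures were drawn with matplotlib 3.10.9.

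The 10 genes, the lists, the pairs and the tests were chosen with earlier results of these data known. Named genes were the 10, the largest rise and fall of each list at days 2 and 5, both genes of each pair and the 5 features nearest to HSPA5. FICD, CALR and CANX were named for their motif, and PNPLA8, THAP5, HSPA1B and the other overlapping genes for shared reads, after values were seen. HSP90AA1 was named as an unpaired Hsp90 of the cytosol, also after values were seen. Alternatives were rescaling, leaving out the 20 most abundant features, a pseudocount of 0.1, a TPM minimum of 5 or none, no trend, only the compared groups in the fit, a fold threshold of 1 and leaving out each library.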

Additional observations from a re-analysis of the deposited data

Results flagged for a closer look

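In 9 genes the fitted change against day 0 was above 0 at day 2 and below 0 at day 3, and the contrast between these days was itself called by limma. Against day 0, HSPA5, SDF2L1, PDIA4, PDIA6 and HYOU1 were not called at day 2 on the deposited scale, nor was HSP90B1 at day 3. The log2 difference between the days was -1.33 for HSPA5, -1.05 for HSP90B1, -1.12 for DNAJC3, -1.60 for SDF2L1, -1.12 for PDIA4, -1.0 for PDIA6, -1.30 for CRELD2, -1.53 for HYOU1 and -1.34 for MANF. The median of all tested features in the same contrast was -0.57. After rescaling the contrast was still called in 6 of the 9, but 6 of the 9 lay above 0 at day 3, so that the turn remained, in sign alone, for HSPA5, SDF2L1 and HYOU1. Neither HSPA5 (-0.15) nor HYOU1 (-0.30) was called at day 3 on the rescaled values, and SDF2L1 (0.37) was not called at day 2.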

How the results depend on the processing

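No paired analysis was possible because the replicate numbers follow accession order and do not link libraries across days. Rescaling moved the number of the 10 genes called higher at day 2 from 5 to 9, and the numbers called lower to 1 at day 3 (from 8), 1 at day 5 (from 9), 6 between days 2 and 3 (from 10) and 0 between days 3 and 5 (from 5). It turned the direction of HSP90B1 (0.38), DNAJC3 (0.21), PDIA4 (0.11), PDIA6 (0.21), CRELD2 (0.20) and MANF (0.05) at day 3, of DNAJC3 (0.09), PDIA6 (0.04) and CRELD2 (0.33) at day 5, of DNAJB9 between days 2 and 3 (0.08), of DNAJB9 (0.35) and CRELD2 (0.12) between days 3 and 5, and of MESD at day 2 (0.05), by its construction. Without the 20 most abundant features, 5 genes were lower at day 3, 3 were lower between days 3 and 5, and DNAJB9 moved by 0.07 in that contrast. With only the compared groups in the fit 3 were lower between days 3 and 5, where the cause was not tested. With a fold threshold of 1, 1 gene was higher at day 2, 0 higher and 3 lower at day 3, 0 higher at day 5 and 0 lower between days 3 and 5. Leaving out each library gave 3 to 8 genes lower between days 3 and 5, differences of 0.29 to 0.37 for PDIA6 to P4HB, -0.88 to -0.71 for CRELD2 to CRELD1 and 0.23 to 0.31 for MANF to HSPA5, and -0.11 to 0.15 for DNAJB9 between days 3 and 5. Except for rescaling, the shares of all features called under these settings are not given, so these counts show only how the main counts move. The other 193 counts were equal to the main count or within a set tolerance of it, so single calls within them could still change. The other 162 ratio values kept their direction and side of the threshold. TPM keeps no depth, so counting error could not be separated from the spread of 3 libraries.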
